A study of Arabidopsis thaliana with 12 samples.

Results

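The genes described here are 49 nuclear genes of Arabidopsis thaliana whose products carry out photosynthesis, taken by locus number from the 36795 loci of the deposited tables. They comprise 7 genes of the light-harvesting complex of photosystem II (LHCII), 4 genes of its minor antenna, 4 genes of the photosystem I antenna (LHCI), 11 photosystem I subunits, 10 photosystem II proteins, 5 genes of Rubisco and its activase, 3 genes of electron transport, 2 subunits of the chloroplast ATP synthase and 3 further enzymes of the Calvin cycle. Enough reads for a test were found for 37 of the 49, of 18413 loci tested in all. RNA came from whole after-ripened seeds, that is, seeds stored dry after harvest, of the wild type Col-0 and of the mutant odr1-2. All seeds were stratified for 2 days at 4°C and then kept for 12 h either in water, the control, or in 300 mM mannitol, which withholds water from the seed by osmosis. This gave 4 groups (Col-0 on water, Col-0 on mannitol, odr1-2 on water and odr1-2 on mannitol) of 3 biological replicates, and whether the replicates of a group came from separate plants or harvests is not stated. The nature of the odr1-2 allele and the light given during imbibition are not given in the sources used here, and the ODR1 transcript was not analysed here.

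In the thylakoid membrane of the chloroplast, antenna proteins bind chlorophyll and pass light energy to the reaction centres of photosystems II and I. The electron flow from water through plastocyanin to photosystem I builds the proton gradient that drives ATP synthase, and the Calvin cycle uses the products to fix carbon dioxide through Rubisco. Nuclear genes encode the antenna, the small Rubisco subunit and many small photosystem subunits, whereas the reaction centre proteins and the large Rubisco subunit are encoded in the chloroplast. In Arabidopsis the embryo greens during seed development and loses its chlorophyll as the seed matures, and the nuclear photosynthesis genes are induced by light when the seedling turns green.

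The libraries held 10060020 to 13693166 counts each, and levels in CPM are counts scaled to a library of 1000000. The 49 genes together held 0.0933% to 0.101% of the counts of a library. All 8 seed markers, which encode storage proteins, an oil body protein and a late embryogenesis protein, were detected in each library. Their summed level in TPM, the authors' values, which are scaled to transcript length and library, was 10869 to 10979 in Col-0 on water, 24924 to 27016 in Col-0 on mannitol, 25984 to 26450 in odr1-2 on water and 42875 to 43899 in odr1-2 on mannitol. The 6 endosperm markers summed to 3512 to 3893, 3077 to 5008, 8664 to 9621 and 9387 to 10155 TPM in the same order. The 5 seed coat markers summed to 7.86 to 11.1 TPM over all libraries, with BAN and TT10, genes of flavonoid synthesis in the young seed coat, at a group mean of at most 0.0288 CPM. The seed marker sums thus differed without overlap between media and between genotypes, and the endosperm marker sums between genotypes, while endosperm sums overlapped between media. In Col-0 that overlap came from mannitol replicate 2 alone, at 3077 TPM, where mannitol replicates 1 and 3 had 4914 and 5008 TPM. The part of these markers in the results below was not tested. In RNA of whole seeds, fewer cells of a type and less RNA per cell cannot be told apart. The library Col-0 mannitol replicate 2 stood somewhat apart from its replicates, with a chi-square per degree of freedom of 5.75 and 4.48 against them, where the other replicate pairs gave 2.01 to 2.81.

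The photosynthesis genes were transcribed at very unequal levels. Averaged over the 12 libraries, 19 genes reached at least 10 TPM, 16 lay between 1 and 10 TPM and 14 lay under 1 TPM. RBCS1A, a gene of the small subunit of Rubisco (AT1G67090, chromosome 1, 25048158 to 25049667, minus strand, TAIR10.1), had the highest mean level of the 49 at 523 TPM. PSBR, a small protein of photosystem II near the oxygen-evolving site, followed at 73.8 TPM. LHCB4.1, a minor antenna protein also known as CP29, had a mean of 73.1 TPM, ATPC1, the gamma subunit of ATP synthase, 65.3 TPM, and RBCS3B, another small-subunit gene of Rubisco, 52.8 TPM. The ranges of the last 4 over libraries overlapped one another, whereas the lowest RBCS1A library, at 405.7 TPM, lay above every library of the other 48 genes. These 5 genes held 62.5% to 71.4% of the summed TPM of the 49 in each library.

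The major LHCII genes of this gene set, whose proteins belong to the most abundant antenna of green leaves, lay at the other end. LHCB1.4 (AT2G34430) and LHCB2.1 (AT2G05100) had 0 counts in all 12 libraries, which allows a level of up to 0.0216 CPM over the 12 libraries together and of 0.219 to 0.298 CPM in a single library. LHCB2.2 (AT2G05070) had 1 count in all, in odr1-2 water replicate 2. LHCB1.1 had 8 counts and LHCB1.2 25 counts over the 12 libraries. These LHCII genes stood at or next to background in every group, and the floors given for genes with 0 counts cover counting error only. Of the LHCB1 genes in this gene set, LHCB1.3 alone was tested. It was at 2.74, 2.04 and 2.45 TPM in Col-0 on water and 4.18, 2.25 and 2.08 in Col-0 on mannitol. In odr1-2 it was at 1.41, 1.89 and 1.4 TPM on water and 1.99, 0.77 and 1.41 on mannitol. Every odr1-2 library lay below every Col-0 library of the same medium, but the difference was not called in water (log2 fold change −0.59 ± 0.40, standard error) or in mannitol (−0.94 ± 0.40). The difference in mannitol was called with total count scaling (−0.99), in the limma fits of log2(TPM + 1) (−0.67) and log2(TPM + 0.1) (−1.0), and without Col-0 mannitol replicate 2 (−1.06) or 3 (−1.12) or odr1-2 mannitol replicate 1 (−1.28). LHCB3, the remaining LHCII gene of this gene set, lay between 1.11 and 2.93 TPM. The LHCII genes LHCB2.3 and LHCB1.5 are not part of this gene set and were listed among the further antenna genes. LHCB2.3 was found in every library, at 1.63 to 3.30 CPM with a mean of 2.45 CPM. LHCB1.5 had a mean of 0.719 CPM, where LHCB1.3 had 1.62 CPM. LHCB1.3 shares 108 exon bases with the gene AT1G29940 on the opposite strand, which had 40536 counts against its own 222, and LHCB3 shares 186 bases with AT5G54280. Whether reads were counted by strand is not given in the sources used here, so reads of such partners cannot be told apart.

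The other genes too low to test were LHCA2 of the photosystem I antenna with 35 counts over the 12 libraries, the photosystem I subunits PSAG with 24, PSAH2 with 35 and PSAK with 8, PSBQ2 of the oxygen-evolving complex with 22, RBCS1B of Rubisco with 12 and PETE1, a plastocyanin gene, with 2. Most of them have a close relative that was expressed. PSBQ1 had a mean of 25.5 TPM over the libraries where PSBQ2 had 0.20, PETE2 had 14.9 where PETE1 had 0.0208, and RBCS3B had 52.8 where RBCS1B had 0.0717. Of the 37 genes tested, 32 had a mean of at least 0.866 CPM in all 4 groups, the level of 10 counts in a library of median size. PSAH1 reached it in 2 groups, LHCB5 and PSAN in 1 and PSAO and PRK in none, so a test of these 5 rests on few counts.

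**Figure D1:**
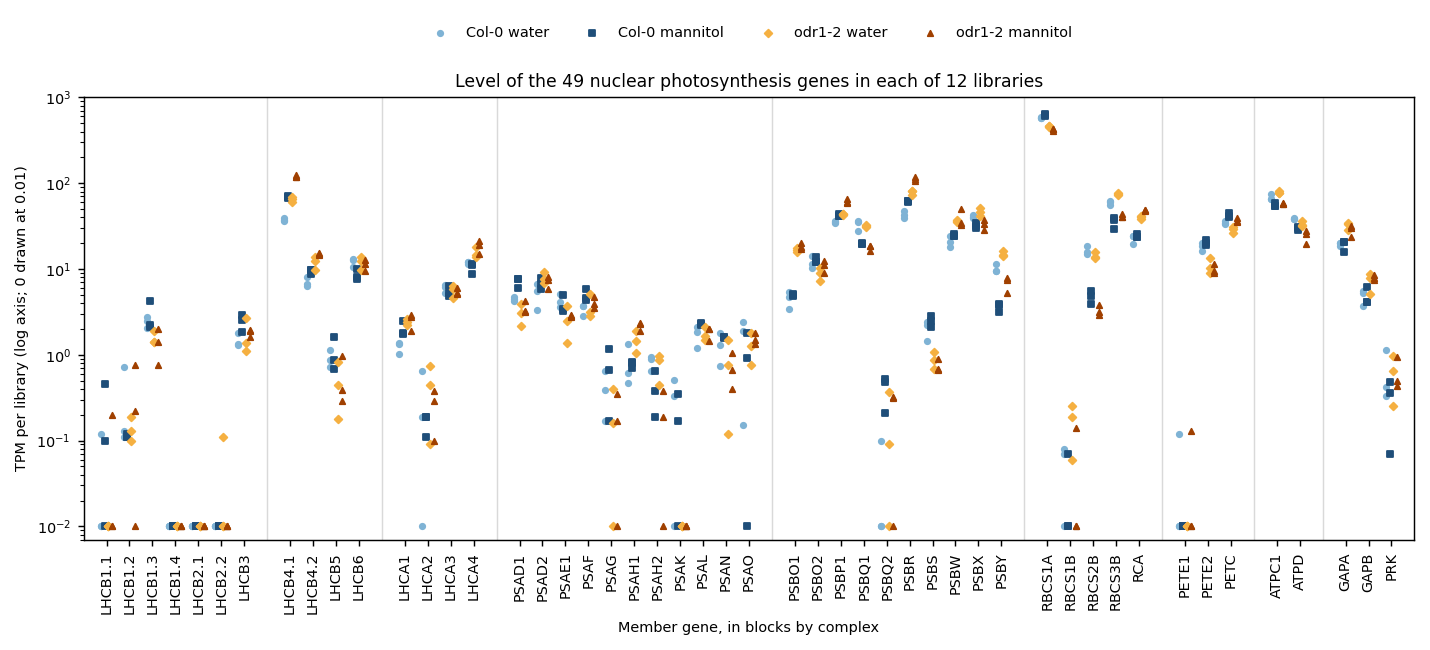
TPM of each of the 49 genes (log axis, values of 0 drawn at 0.01) in each of the 12 libraries, in blocks by complex, with 1 colour and marker per group. RBCS1A lies above all other genes in every library, while LHCB1.4 and LHCB2.1 are at 0 throughout.

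The sum over the 49 genes hardly moved: it lay between 1149 and 1233 TPM in all 12 libraries, and the ranges of the groups overlapped, apart from Col-0 on water (1169 to 1182 TPM) against Col-0 on mannitol (1192 to 1233 TPM) and against odr1-2 on water (1193 to 1208 TPM). Its make-up differed. RBCS1A held 49.2% to 50.3% of the sum in Col-0 on water and 51.1% to 52.4% in Col-0 on mannitol, but 37.9% to 38.7% in odr1-2 on water and 35.3% to 36.4% in odr1-2 on mannitol. Without RBCS1A the other 48 genes summed to 567 to 600.04 TPM over the Col-0 libraries and to 737 to 787 TPM over the odr1-2 libraries. A steady total thus went with less RBCS1A transcript and more transcript of the remaining genes in odr1-2.

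**Figure D2:**
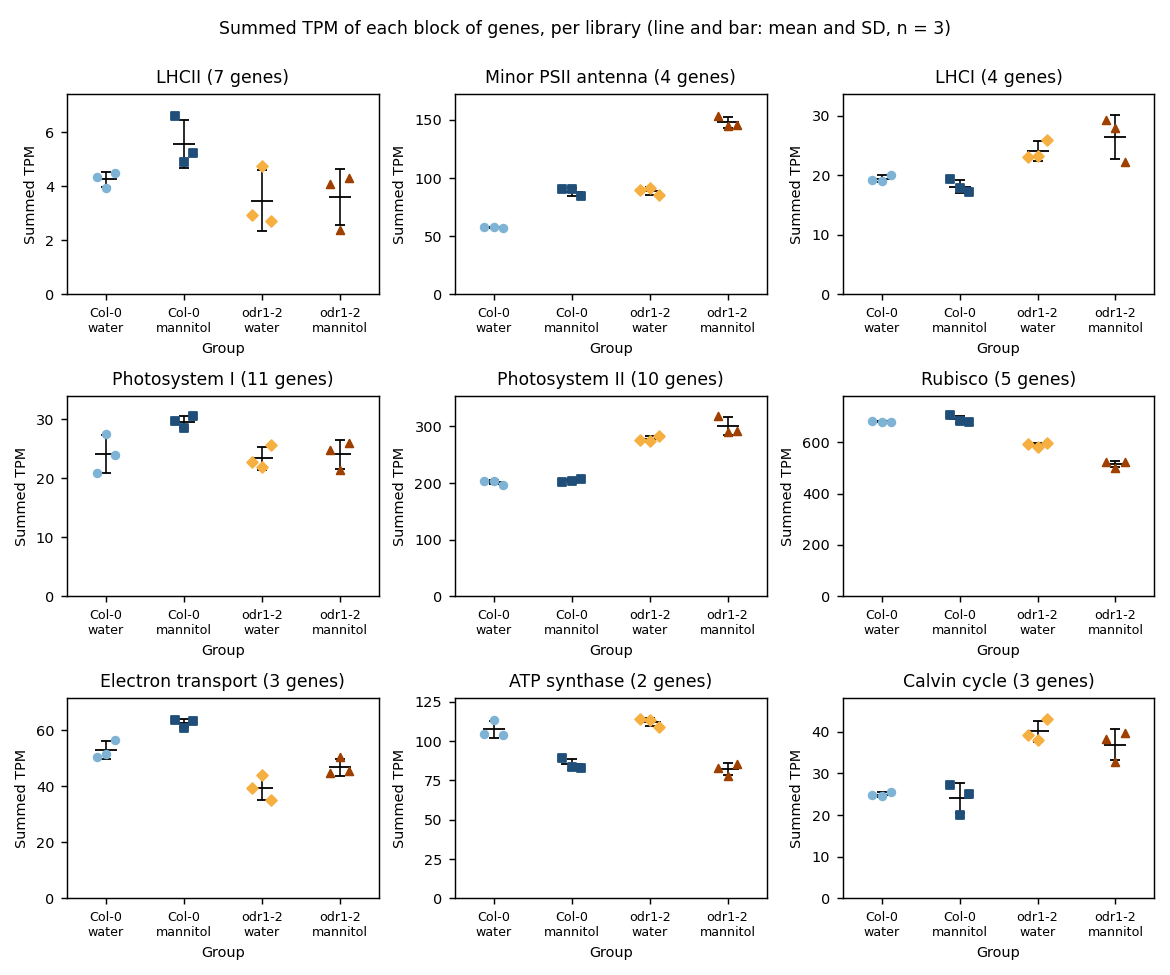
Summed TPM of the genes of each block in each library (points), with the mean and SD of the 3 libraries of a group (line and bar), on axes that start at 0. The minor antenna sum is 56.9 to 58.0 TPM in Col-0 on water and 145 to 153 TPM in odr1-2 on mannitol. LHCB4.1 makes up most of it, with means of 37.5 and 121 TPM in these groups. LHCB4.2 has 7.04 and 15.0 TPM, LHCB6 12.1 and 11.2 TPM and LHCB5 0.913 and 0.55 TPM. The Rubisco block sum is 680 to 683 and 501 to 523 TPM in the same groups. RCA within it has means of 22.6 and 48.0 TPM. The sums were not tested.

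The 250 bases before the annotated start of 4 genes are shown here as examples. LHCB4.1 was among the genes higher in mannitol, RBCS2B among those lower, LHCA4 among those higher in odr1-2, and LHCB2.2 among the nearly silent LHCII genes. All were read from the RefSeq TAIR10.1 genome, on the strand of the gene, 5′ to 3′, and none overlaps another annotated gene. They lie at chr5:208616-208865 (LHCB4.1, plus strand), chr5:15382072-15382321 (RBCS2B, minus), chr3:17495034-17495283 (LHCA4, minus) and chr2:1800473-1800722 (LHCB2.2, minus). Capitals mark matches on either strand to the G-box (CACGTG), the I-box (GATAAG), a motif of GLK factors (CCAATC) and the core of the abscisic acid response element (ACGTGT), which may share letters with a G-box.
LHCB4.1: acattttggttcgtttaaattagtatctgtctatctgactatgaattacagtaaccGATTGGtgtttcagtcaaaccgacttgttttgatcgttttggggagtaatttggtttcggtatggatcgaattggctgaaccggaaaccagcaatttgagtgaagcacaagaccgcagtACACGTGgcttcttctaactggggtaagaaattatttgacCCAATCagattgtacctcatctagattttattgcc
RBCS2B: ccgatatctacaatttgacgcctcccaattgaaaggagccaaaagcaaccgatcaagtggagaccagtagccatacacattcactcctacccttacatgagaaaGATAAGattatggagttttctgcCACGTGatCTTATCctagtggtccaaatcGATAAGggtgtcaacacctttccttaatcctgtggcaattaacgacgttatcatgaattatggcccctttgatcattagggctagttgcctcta
LHCA4: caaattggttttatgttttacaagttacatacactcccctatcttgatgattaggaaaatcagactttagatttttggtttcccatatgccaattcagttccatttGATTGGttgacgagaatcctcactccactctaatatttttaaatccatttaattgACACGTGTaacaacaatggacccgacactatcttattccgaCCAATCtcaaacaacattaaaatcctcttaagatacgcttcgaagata
LHCB2.2: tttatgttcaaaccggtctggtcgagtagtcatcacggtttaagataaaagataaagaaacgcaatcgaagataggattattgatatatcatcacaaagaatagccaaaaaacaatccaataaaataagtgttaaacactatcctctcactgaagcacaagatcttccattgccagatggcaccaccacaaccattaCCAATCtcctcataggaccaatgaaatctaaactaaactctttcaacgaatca
LHCB4.1 and LHCA4 each hold a G-box with an overlapping response element core and a pair of GLK motifs, RBCS2B holds a G-box between I-boxes, and LHCB2.2 holds a GLK motif only. Most genes with like calls lacked these letters. Of the 5 genes higher in mannitol in both genotypes, 1 held a G-box and 3 a GLK motif. Of the 7 lower, 3 held a G-box and 1 an I-box. Of the 12 higher in odr1-2 in both media, 2 held a G-box and 4 a GLK motif. Over the 49 windows, 9 (18.4%) held a G-box against 6.49% of the 27443 windows of all nuclear protein-coding genes. The I-box was found in 13 (26.5%) against 12.3%, the GLK motif in 13 (26.5%) against 10.2% and the response element core in 10 (20.4%) against 10.5%. The evening element of clock-controlled genes, AAAATATCT, was found in 1 window, or 2.04%, against 2.36% of all. A match describes letters in a window and not a binding site, the motifs were chosen with results of these data known, and the 12 genes too low to test held them too, with a GLK motif in 3 of 12 (25.0%) and a G-box in 2 (16.7%).

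The first comparison asked what 300 mM mannitol did to these genes in wild-type seeds. Throughout, a rise, a fall or a call means an adjusted p below 0.05 by edgeR's quasi-likelihood test, with adjustment over all 18413 genes tested. In Col-0, 7 of the 37 tested genes rose in mannitol and 8 fell. Together these were 40.5% of the tested genes against 42.4% of all genes, with 21.0% of all genes higher and 21.4% lower, so the share called was near that of the transcriptome. The libraries of the 2 groups did not overlap for 21 of the 37 genes, against 49.9% of all genes. The median log2 fold change was 0.16 among the 37 and 0.00 among all genes. In odr1-2, 6 genes rose in mannitol and 7 fell, 35.1% of the tested genes against 42.5% of all genes, of which 21.2% were higher and 21.3% lower. Here 16 of the 37 genes did not overlap, against 51.3% of all, and the median was 0.15. Photosystem II and the Rubisco block held calls in both directions in each genotype, as did the minor antenna in Col-0. Within any other block, such calls as there were went in the same direction.

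LHCB4.1 (AT5G01530, chromosome 5, 208866 to 210548, plus strand, TAIR10.1) rose most in both genotypes. It was at 37.1, 36.2 and 39.3 TPM in Col-0 on water and at 71.7, 69.7 and 66.4 in Col-0 on mannitol. In odr1-2 it was at 65.6, 68.4 and 59.6 TPM in water and 125.6, 119 and 119 in mannitol. Each mannitol library lay above each water library of its genotype, and odr1-2 on water overlapped Col-0 on mannitol. The log2 fold change was 0.94 ± 0.07 in Col-0 (edgeR adjusted p = 4.08e-18), a 1.92-fold rise, and 1.02 ± 0.07 in odr1-2 (edgeR adjusted p = 7.54e-22), a 2.02-fold rise. Its relative LHCB4.2, a second CP29 gene with 81.1% identical coding bases, rose less, from 6.71, 8.00 and 6.42 TPM to 9.62, 8.85 and 9.65 in Col-0 and from 9.77, 13.6 and 12.4 TPM to 14.6, 14.9 and 15.5 in odr1-2. These were changes of 0.47 ± 0.17 and 0.42 ± 0.15 on the log2 scale. The Col-0 call was lost without Col-0 mannitol replicate 3 (0.44) and without either of the Col-0 water replicates 1 (0.43) and 3 (0.40), and the odr1-2 call without odr1-2 water replicate 1 (0.30) and in the limma fit of log2(TPM + 0.1) (0.34). LHCB4.2 also shares 44 exon bases with AT3G08943 on the opposite strand. Of the other minor antenna genes, LHCB6, which encodes CP24, fell in Col-0 (−0.43 ± 0.17) and did not change by the test in odr1-2 (0.03 ± 0.17), a difference between genotypes that was not called (edgeR adjusted p of the interaction = 0.402). LHCB6 shares 103 exon bases with AT1G15810 on the opposite strand, which had 10771 counts against 1174 for LHCB6, and 143 with AT1G05207. Its call was lost in the DESeq2 Wald test (−0.43) and without any of the Col-0 water replicates 1 (−0.38) and 2 (−0.39) and the Col-0 mannitol replicates 1 (−0.37) and 3 (−0.35). LHCB5, which encodes CP26, was not called in any comparison and lay between 0.18 and 1.61 TPM.

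Among the photosystem II proteins, PSBR and PSBP1 rose and PSBQ1, PSBX and PSBY fell, in both genotypes. PSBR was at 42.1, 39.0 and 48.0 TPM in Col-0 on water, 62.5, 60.7 and 62.2 in Col-0 on mannitol, 81.6, 73.0 and 81.0 in odr1-2 on water and 106, 117 and 112 in odr1-2 on mannitol. The 4 groups did not overlap and stood in that order. Its log2 fold changes in mannitol were 0.58 ± 0.09 in Col-0 and 0.62 ± 0.08 in odr1-2. PSBP1, a protein of the oxygen-evolving complex, went from 36.7, 35.1 and 34.3 TPM to 40.9, 41.5 and 44.3 in Col-0 (0.32 ± 0.08) and from 42.8, 43.5 and 43.7 TPM to 64.7, 61.0 and 59.1 in odr1-2 (0.61 ± 0.08). The larger rise in odr1-2 was not called as a difference between genotypes (edgeR adjusted p of the interaction = 0.171). PSBP1 shares 22 exon bases on its own strand with AT1G06670, and PSBR shares 51 bases with AT1G79050 on the opposite strand.

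PSBY, a small membrane protein of photosystem II, fell the most in this complex. It was at 9.41, 11.5 and 9.47 TPM in Col-0 on water against 3.84, 3.13 and 3.87 in mannitol, and at 16.1, 14.4 and 14.2 TPM in odr1-2 on water against 7.83, 5.22 and 7.53 in mannitol. Each mannitol library lay below each water library of its genotype. The log2 fold changes were −1.43 ± 0.21 in Col-0 (edgeR adjusted p = 1.88e-08) and −1.01 ± 0.18 in odr1-2 (edgeR adjusted p = 2.01e-06). PSBQ1, another protein of the oxygen-evolving complex, went from 35.4, 36.1 and 27.7 TPM to 19.7, 20.2 and 19.7 in Col-0 and from 30.9, 32.4 and 31.4 TPM to 18.3, 16.0 and 18.3 in odr1-2, changes of −0.67 ± 0.12 and −0.74 ± 0.13. PSBP1 and PSBQ1, which act side by side at the oxygen-evolving site, thus moved in opposite directions. PSBX, a small core protein, changed by −0.29 ± 0.12 in Col-0 and −0.37 ± 0.12 in odr1-2. Its Col-0 call was the least stable of all, being lost without a filter on low counts (−0.30), in the DESeq2 Wald test (−0.29) and without any of 7 libraries, namely Col-0 water replicates 1 (−0.32), 2 (−0.30) and 3 (−0.26), Col-0 mannitol replicates 1 (−0.23) and 2 (−0.30) and odr1-2 water replicates 2 (−0.29) and 3 (−0.29). Its odr1-2 call was lost without odr1-2 mannitol replicate 2 (−0.28) or odr1-2 water replicate 3 (−0.30). PSBO1, PSBO2, PSBS and PSBW were not called in either genotype, with log2 fold changes of −0.13 to 0.39.

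The small-subunit genes of Rubisco moved apart. RBCS2B (AT5G38420, chromosome 5, 15380907 to 15382071, minus strand, TAIR10.1) was at 15.1, 18.3 and 15.8 TPM in Col-0 on water and 4.85, 3.94 and 5.47 in mannitol. In odr1-2 it was at 16.0, 13.8 and 13.4 TPM in water and 2.92, 3.18 and 3.84 in mannitol. All mannitol libraries lay well below all water libraries. The log2 fold change was −1.73 ± 0.20 in Col-0 (edgeR adjusted p = 5.35e-11) and −2.0 ± 0.22 in odr1-2 (edgeR adjusted p = 4.59e-12), the largest fall of any of the 37 genes in either genotype. RBCS3B, its neighbour in a tandem cluster on chromosome 5 (15376988 to 15378642, minus strand), was at 60.2, 56.0 and 61.5 TPM in Col-0 on water and 39.0, 29.3 and 37 in mannitol, and at 72.8, 75.6 and 77.1 TPM in odr1-2 on water and 40.2, 43.9 and 40.6 in mannitol. These were changes of −0.70 ± 0.08 and −0.75 ± 0.08. RBCS1A on chromosome 1 did not follow: it was at 588, 582 and 578 TPM in Col-0 on water and 637, 625 and 611 in mannitol, a rise of 0.16 ± 0.04 on the log2 scale. In odr1-2 it was at 462, 452 and 468 TPM in water and 429.8, 405.7 and 431 in mannitol, with a log2 fold change of −0.02 ± 0.04 on the TMM-scaled counts. Every TPM value was lower in mannitol and both limma fits of TPM called RBCS1A lower (−0.13 in each). In those limma fits the median over all genes was itself −0.10 and −0.11, against −0.003 on the TMM-scaled counts. The 3 genes at the chromosome 5 cluster share 94.1% to 97.2% of their coding bases, and RBCS1A shares 87.7% to 90.1% with them. Summing RBCS1B, RBCS2B and RBCS3B before the fit gave −0.82 ± 0.08 in Col-0 and −0.85 ± 0.07 in odr1-2. No 100-base stretch of RBCS2B occurs in another annotated transcript, while 12.1% of those of RBCS3B and 7.46% of those of RBCS1B do.

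Both ATP synthase subunits fell in both genotypes. ATPC1 was at 65.5, 75.5 and 66.0 TPM in Col-0 on water, 59.0, 54.0 and 54.6 in Col-0 on mannitol, 81.6, 76.8 and 77.3 in odr1-2 on water and 57.4, 58.4 and 57.9 in odr1-2 on mannitol. Mannitol libraries were below water libraries in both genotypes, by −0.25 ± 0.07 and −0.33 ± 0.07 on the log2 scale, and the Col-0 call did not hold without Col-0 water replicate 2 (−0.18). ATPD, the delta subunit, changed by −0.32 ± 0.11 and −0.37 ± 0.11, and its odr1-2 call was lost without odr1-2 mannitol replicate 2 (−0.23). PETC, the Rieske iron-sulphur protein of the cytochrome b6f complex, rose by 0.34 ± 0.10 in Col-0 and 0.47 ± 0.10 in odr1-2, whereas the plastocyanin gene PETE2 was not called (0.21 ± 0.13 and −0.02 ± 0.15). RCA, the activase that frees Rubisco of bound inhibitors, was called in odr1-2 (0.36 ± 0.07) but not in Col-0 (0.15 ± 0.09), and the difference was not called (edgeR adjusted p of the interaction = 0.409). The Calvin cycle genes GAPA and GAPB, subunits of the chloroplast glyceraldehyde-3-phosphate dehydrogenase, and PRK, phosphoribulokinase, were not called in either genotype.

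Photosystem I and its antenna gave a single call for mannitol. PSAD1, a stromal subunit that docks ferredoxin, was at 4.72, 4.18 and 4.43 TPM in Col-0 on water and 7.73, 6.03 and 7.60 in mannitol, a rise of 0.73 ± 0.25 (edgeR adjusted p = 0.0129) that was lost without Col-0 mannitol replicate 3 (0.68). In odr1-2 its libraries overlapped, at 3.05, 2.16 and 3.86 TPM in water and 3.12, 3.22 and 4.22 in mannitol, with a change of 0.32 ± 0.28. Its relative PSAD2 was at 3.36, 6.62 and 5.51 TPM in Col-0 on water, 6.64, 5.92 and 7.89 in Col-0 on mannitol, 7.72, 6.92 and 9.27 in odr1-2 on water and 8.13, 5.80 and 7.38 in odr1-2 on mannitol, and was not called for mannitol. LHCA1, LHCA3, LHCA4, PSAE1, PSAF, PSAH1, PSAL, PSAN and PSAO were not called for mannitol in either genotype, with log2 fold changes of −0.62 to 0.74. PSAH1, PSAL, PSAN and PSAO, at 0 to 2.41 TPM, had standard errors of 0.40 to 0.68, which limits the changes that could be detected in them.

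The Col-0 and odr1-2 responses share no library, so their calls can be set against each other, although both come from 1 fit. Of the 7 genes that rose in Col-0 and the 6 that rose in odr1-2, 5 were shared (71.4% and 83.3% of the lists), namely LHCB4.1, LHCB4.2, PSBP1, PSBR and PETC. Of the 8 and 7 that fell, 7 were shared (87.5% and 100% of the lists), namely PSBQ1, PSBX, PSBY, RBCS2B, RBCS3B, ATPC1 and ATPD. No gene was called in opposite directions. The share of all tested genes called alike in both genotypes was not counted, so this overlap cannot be read as particular to these genes. In the test of the difference between the responses, edgeR called 0 of the 37 genes, against 3.75% of all genes (1.08% higher and 2.67% lower), with 3 genes (LHCA4, PSBP1 and RBCS1A) at an unadjusted p under 0.05. DESeq2 also called 0. The lowest adjusted p by edgeR was that of RBCS1A, 0.0908, for a difference of −0.18 ± 0.06. RBCS1A was called in this test both when libraries were scaled by total count (−0.21) and by limma fits of log2(TPM + 1) and log2(TPM + 0.1) (−0.23 in each).

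**Figure D3:**
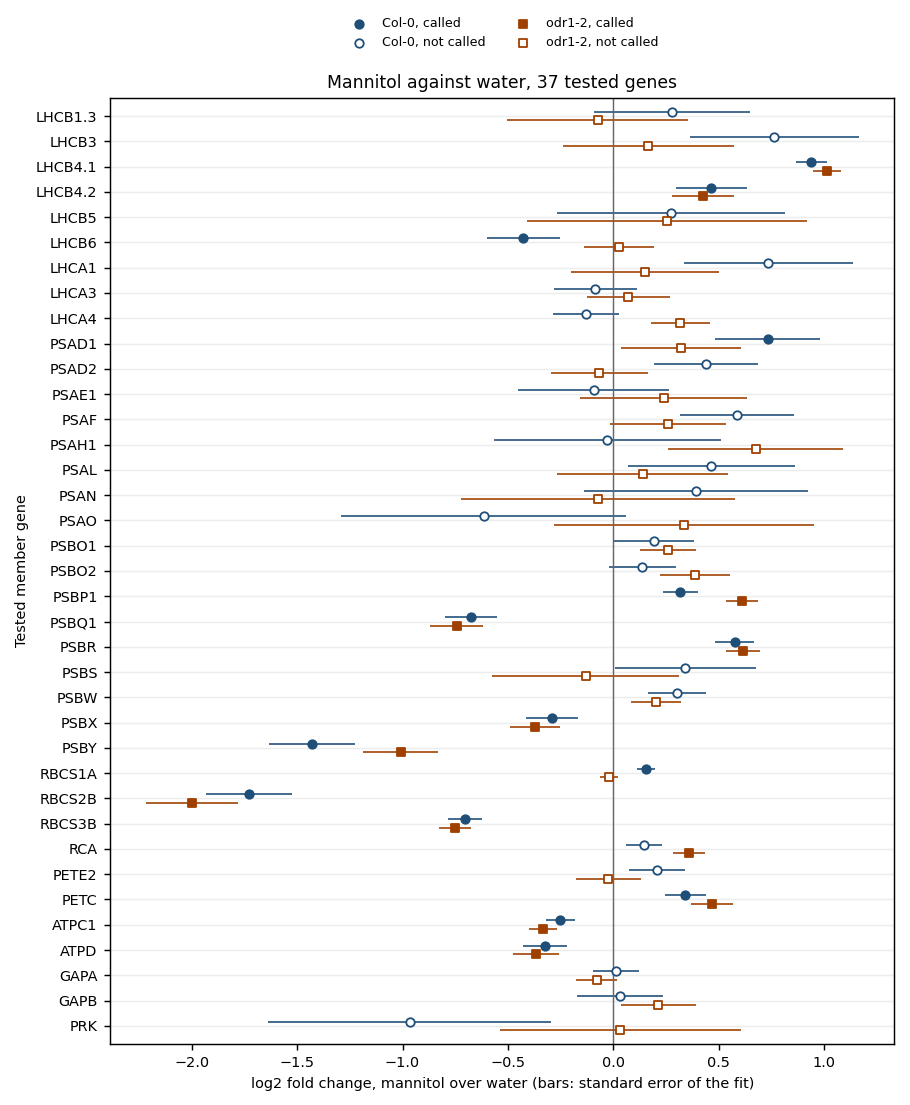
Log2 fold change of mannitol over water for the 37 tested genes in Col-0 (circles) and odr1-2 (squares), filled where called, with bars for the standard error of the fit. LHCB4.1, near 0.94 and 1.02, lies farthest to the right among the called genes and RBCS2B, at −1.73 and −2.0, farthest to the left.

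The second question was how the genes differed between the genotypes. In water, 15 of the 37 tested genes were higher in odr1-2 and 5 were lower, 54.1% of the tested genes against 39.0% of all genes. Higher calls made up 40.5% of the tested genes against 20.4% of all genes, and lower calls were 18.6% of all genes. In mannitol, 14 (among them PSAH1, which passed the filter on low counts only through the odr1-2 groups) were higher and 4 lower, 48.6% against 40.1%, with higher calls at 37.8% against 20.5% of all genes and lower calls at 19.6% of all genes. The libraries of the genotypes did not overlap for 22 genes in water, against 49.6% of all genes, and for 26 in mannitol, against 47.6% of all. The median log2 fold change was 0.11 in water and 0.12 in mannitol, and 0.00 over all genes in both media. Higher calls in odr1-2 were thus more frequent than in the transcriptome as a whole, a description that carries no test since the genes were chosen with earlier results known. Of the 8 seed markers, 7 were called higher in odr1-2 in water and 8 in mannitol. Of the 6 endosperm markers, 3 (EXPA2, MAN7 and EPR1) were called higher in both media, MAN2 was called lower in water (−0.62 ± 0.25) and not in mannitol (−0.43 ± 0.28), and MAN5 and MAN6 were not called. Their part in the difference was not tested.

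PSBO1, the main manganese-stabilising protein of the oxygen-evolving complex (AT5G66570, chromosome 5, 26568572 to 26570461, plus strand, TAIR10.1), differed most. It was at 3.45, 5.42 and 4.66 TPM in Col-0 on water and 17.4, 15.6 and 16.6 in odr1-2 on water, and at 5.01, 5.15 and 4.82 TPM in Col-0 on mannitol and 20.1, 18 and 17 in odr1-2 on mannitol. Every odr1-2 library was well above every Col-0 library. The log2 fold change was 1.87 ± 0.16 in water (edgeR adjusted p = 3.52e-16) and 1.94 ± 0.16 in mannitol (edgeR adjusted p = 3.02e-17), or 3.67-fold and 3.84-fold. Its relative PSBO2, with 83.6% identical coding bases, went the other way in water, from 11.4, 14.2 and 10.4 TPM in Col-0 to 7.34, 10.3 and 9.02 in odr1-2. This fall of −0.40 ± 0.16 (edgeR adjusted p = 0.0451) was lost without a filter on low counts (−0.40), in the DESeq2 Wald test (−0.41) and without Col-0 water replicate 1 (−0.44) or 2 (−0.26), odr1-2 mannitol replicate 2 (−0.40) or odr1-2 water replicate 1 (−0.28) or 3 (−0.41). In mannitol PSBO2 overlapped between genotypes, at 12.1, 13.9 and 12.1 TPM in Col-0 and 12.5, 11.2 and 9.03 in odr1-2. The share of PSBO1 in the pair was 27.3% ± 3.88 (SD, n = 3) in Col-0 on water and 28.3% ± 1.15 in Col-0 on mannitol, but 65.1% ± 5.11 in odr1-2 on water and 62.9% ± 2.16 in odr1-2 on mannitol. The predominant gene of the pair was therefore PSBO2 in the wild type and PSBO1 in the mutant. In a two-sided exact permutation test of the log2 ratio the genotypes differed with p = 0.10 in each medium, the smallest that 3 against 3 libraries allow (0.171 when adjusted over 24 such comparisons of 6 pairs). No 100-base stretch of PSBO1 or PSBO2 occurs in another annotated transcript.

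The other photosystem II genes that were higher in odr1-2 were PSBR, PSBP1, PSBW and PSBY, called in both media. PSBR differed by 0.88 ± 0.09 in water and 0.92 ± 0.08 in mannitol and PSBP1 by 0.31 ± 0.08 and 0.61 ± 0.08, with the library values given above. PSBW, a small protein that links photosystem II to its antenna, had group means of 20.9 ± 3.26 (SD, n = 3), 24.7 ± 0.593, 36.4 ± 0.765 and 39.0 ± 10 TPM in the order Col-0 on water, Col-0 on mannitol, odr1-2 on water and odr1-2 on mannitol. It differed by 0.82 ± 0.13 and 0.72 ± 0.13. PSBY differed by 0.57 ± 0.17 and 0.99 ± 0.22. PSBS, which triggers the dissipation of excess light as heat, was lower in odr1-2. It was at 2.2, 1.46 and 2.43 TPM in Col-0 on water, 2.09, 2.84 and 2.46 in Col-0 on mannitol, 0.87, 0.68 and 1.08 in odr1-2 on water and 0.68, 0.90 and 0.66 in odr1-2 on mannitol. All 6 odr1-2 libraries lay below all 6 Col-0 libraries, on 9 to 39 counts per library. The differences were −1.18 ± 0.38 in water (edgeR adjusted p = 0.00994) and −1.65 ± 0.39 in mannitol (edgeR adjusted p = 0.000313), and the call in water did not hold without Col-0 water replicate 3 (−1.02) or odr1-2 water replicate 2 (−1.02).

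In the antenna, LHCB4.1 was higher in odr1-2 by 0.80 ± 0.07 in water and 0.87 ± 0.07 in mannitol, and LHCB4.2 by 0.78 ± 0.16 and 0.74 ± 0.15. The share of LHCB4.1 in this pair was 84.2% in Col-0 and 84.4% in odr1-2 on water, and 88.1% and 89.0% in mannitol. The share of LHCB4.1 was thus higher in mannitol without overlap in both genotypes, while the shares of the genotypes overlapped in each medium. For mannitol the exact permutation p was 0.10 in each genotype (0.171 adjusted), the smallest possible, so this test could not show a shift. LHCA4, a protein of the photosystem I antenna, was at 12.1, 11.5 and 12.1 TPM in Col-0 on water and 13.9, 14.8 and 18.1 in odr1-2 on water, and at 11.4, 11.1 and 8.84 TPM in Col-0 on mannitol and 20.9, 18.9 and 14.8 in odr1-2 on mannitol. Each odr1-2 library was above each Col-0 library of the same medium, by 0.42 ± 0.15 and 0.87 ± 0.15. The call in water did not hold without Col-0 water replicate 2 (0.40) or odr1-2 water replicate 3 (0.29). LHCA1, its partner in the antenna, was at 1.32, 1.03 and 1.38 TPM in Col-0 on water and 2.22, 2.60 and 2.44 in odr1-2 on water. It was at 2.49, 1.76 and 1.80 TPM in Col-0 on mannitol and 2.78, 2.87 and 1.88 in odr1-2 on mannitol, where the groups overlapped. Only the difference in water was called (0.97 ± 0.39, edgeR adjusted p = 0.0399), on 10 to 27 counts per library. That call was lost without a filter on low counts (0.97) and without Col-0 water replicate 1 (1.01), 2 (0.86) or 3 (1.06) or odr1-2 water replicate 2 (0.92) or 3 (0.97). LHCB6, with the overlaps given above, was called higher in odr1-2 on mannitol (0.45 ± 0.17) with overlapping libraries, a call that failed with total count scaling (0.40), in the limma fits of TPM (0.36 and 0.39) and without Col-0 mannitol replicate 1 (0.39) or 3 (0.37) or odr1-2 mannitol replicate 1 (0.36) or 3 (0.44).

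Among the photosystem I subunits the PSAD pair differed. PSAD1, with the library values given above, was lower in odr1-2 on mannitol (−0.94 ± 0.26, edgeR adjusted p = 0.00199) and not called in water (−0.53 ± 0.28). Both limma fits of TPM called PSAD1 lower in odr1-2 on water (−0.46 and −0.58). PSAD2 was higher in odr1-2 on water (0.63 ± 0.24), a call that did not hold without Col-0 water replicate 1 (0.42) or 3 (0.67) or odr1-2 water replicate 3 (0.50), and not called in mannitol (0.12 ± 0.24). The share of PSAD1 in the pair was 47.2% ± 10.12 and 51.1% ± 2.43 in Col-0 on water and mannitol, and 27.2% ± 2.98 and 33.3% ± 4.81 in odr1-2. The genotypes did not overlap in either medium (exact permutation p = 0.10 in each, the smallest possible). PSAH1, a subunit at the docking site of LHCII, was at 0.47, 0.61 and 1.35 TPM in Col-0 on water and 1.45, 1.88 and 1.06 in odr1-2 on water, where the groups overlapped. It was at 0.70, 0.81 and 0.83 TPM in Col-0 on mannitol and 2.31, 1.87 and 2.35 in odr1-2 on mannitol, where they did not. The difference in mannitol was 1.53 ± 0.46, on 6 to 23 counts per library. PSAH1 passed the filter on low counts only through the odr1-2 groups, with means of 1.21 and 1.84 CPM on water and mannitol against 0.67 and 0.65 CPM in Col-0, so its value is a description and its place among the 14 higher genes on mannitol supports nothing. PSAH1 shares 693 exon bases with AT3G16130 on the opposite strand, which had 104 counts against 153 for PSAH1 over the 12 libraries. Its near-copy PSAH2 was at 0.65, 0.94 and 0.89 TPM in Col-0 on water, 0.65, 0.19 and 0.38 in Col-0 on mannitol, 0.45, 0.87 and 0.98 in odr1-2 on water and 0, 0.19 and 0.38 in odr1-2 on mannitol. The sum of both genes differed by 1.25 ± 0.43 in mannitol.

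Rubisco and its activase differed in opposite ways. RBCS1A was lower in odr1-2, with no overlap in either medium, by −0.32 ± 0.04 in water (edgeR adjusted p = 2.53e-09) and −0.50 ± 0.04 in mannitol (edgeR adjusted p = 3.47e-16), or 0.800 and 0.707 of the Col-0 level. RBCS3B was higher by 0.36 ± 0.07 and 0.31 ± 0.08, and RBCS2B was not called (−0.18 ± 0.17 and −0.45 ± 0.26). Both limma fits of TPM called RBCS2B lower in odr1-2 on mannitol (−0.41 and −0.50). In the pair of RBCS1A and RBCS3B the share of RBCS1A was 90.8% ± 0.419 in Col-0 on water, 94.7% ± 0.729 in Col-0 on mannitol, 86.0% ± 0.372 in odr1-2 on water and 91.0% ± 0.681 in odr1-2 on mannitol. In the tandem pair the share of RBCS2B in the sum with RBCS3B was 21.7%, 11.9%, 16.1% and 7.39% in the same order of groups. Both shares thus differed with mannitol as well as with genotype, and none of these 4 contrasts overlapped for either pair. The exact permutation p was 0.10 in each (0.171 adjusted), the smallest possible, so this test could not show a shift. RCA was at 19.5, 24.0 and 24.3 TPM in Col-0 on water, 23.5, 23.4 and 25.5 in Col-0 on mannitol, 41.4, 40.9 and 38.7 in odr1-2 on water and 48.3, 48.2 and 47.7 in odr1-2 on mannitol. All odr1-2 libraries were above all Col-0 libraries, by 0.84 ± 0.08 in water (edgeR adjusted p = 3.07e-14) and 1.06 ± 0.08 in mannitol (edgeR adjusted p = 9.62e-19).

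The Calvin cycle genes GAPA and GAPB were higher in odr1-2 in both media. GAPA had group means of 19.5 ± 0.771 (SD, n = 3) TPM in Col-0 and 32.2 ± 3.04 in odr1-2 on water, and 18.9 ± 2.61 and 28.3 ± 4.01 in mannitol, differences of 0.74 ± 0.10 and 0.65 ± 0.10. GAPB had means of 4.82 ± 0.966 and 7.27 ± 1.94 TPM in water and 4.82 ± 1.19 and 7.96 ± 0.557 in mannitol, differences of 0.62 ± 0.19 and 0.80 ± 0.19. The GAPB libraries overlapped in water, and that call was lost in the limma fits of TPM (0.49 and 0.57) and without Col-0 water replicate 1 (0.47) or odr1-2 water replicate 2 (0.46). GAPA made up 77.8% to 81.5% of the pair on average in each group, and no contrast of this share separated the libraries. PRK, at 0.07 to 1.13 TPM, was not called.

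Both tested electron transport genes were lower in odr1-2 on water. PETE2, the expressed plastocyanin gene, was at 16.4, 18.4 and 20.1 TPM in Col-0 on water and 10.3, 13.3 and 9.05 in odr1-2 on water, and at 19.1, 20.1 and 21.8 TPM in Col-0 on mannitol and 8.90, 11.4 and 9.48 in odr1-2 on mannitol. No odr1-2 library reached the lowest Col-0 library, and the differences were −0.74 ± 0.14 (edgeR adjusted p = 1.95e-05) and −0.97 ± 0.14 (edgeR adjusted p = 6.23e-08). PETC was lower in water only (−0.26 ± 0.10), which was lost without a filter on low counts (−0.26) and without Col-0 water replicate 1 (−0.27) or 3 (−0.22) or odr1-2 water replicate 1 (−0.25) or 3 (−0.19), and was not called in mannitol (−0.13 ± 0.10). ATPC1 was higher in water (0.20 ± 0.07), which did not hold without Col-0 water replicate 1 (0.17) or 3 (0.17), and not called in mannitol (0.12 ± 0.07). ATPD was not called in either medium. In other settings it was called lower in odr1-2 on mannitol. These were total count scaling (−0.27), the limma fits of log2(TPM + 1) (−0.29) and log2(TPM + 0.1) (−0.30), and the fit without odr1-2 mannitol replicate 3 (−0.32).

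The contrasts in water and in mannitol share no library. The 15 and 14 genes that were higher in odr1-2 had 12 in common (80.0% and 85.7% of the lists): LHCB4.1, LHCB4.2, LHCA4, PSBO1, PSBP1, PSBR, PSBW, PSBY, RBCS3B, RCA, GAPA and GAPB. The 5 and 4 that were lower had 3 in common (60.0% and 75.0%), namely PSBS, RBCS1A and PETE2. How often all tested genes were called alike in both media was not counted, so this overlap cannot be read as particular to these genes. LHCB1.3, LHCB3, LHCB5, LHCA3, PSAE1, PSAF, PSAL, PSAN, PSAO and PRK, 10 of the 37 tested genes, were not called for mannitol or for genotype, and these 10 all lay under 10 TPM on average. PSAE1 was called lower in odr1-2 on water in both limma fits of TPM (−0.64 and −0.84) and without odr1-2 water replicate 2 (−1.10). The test of the difference between responses also compares the genotype difference between the media, and it called 0 of the 37 genes by edgeR and 0 by DESeq2, with 3 at an unadjusted p under 0.05.

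**Figure D4:**
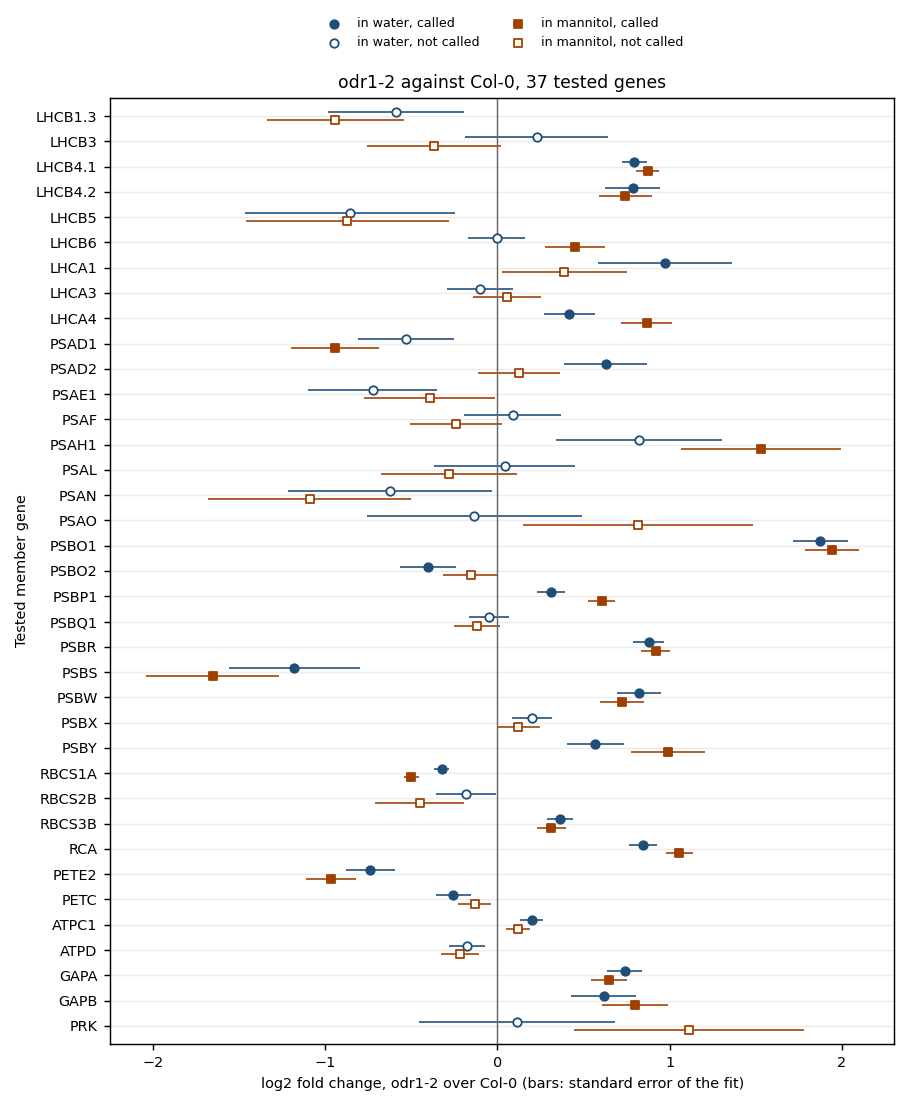
Log2 fold change of odr1-2 over Col-0 for the 37 tested genes in water (circles) and in mannitol (squares), filled where called, with bars for the standard error of the fit. PSBO1, at 1.87 and 1.94, lies farthest to the right and PSBS, at −1.18 and −1.65, farthest to the left of the called genes.

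**Figure D5:**
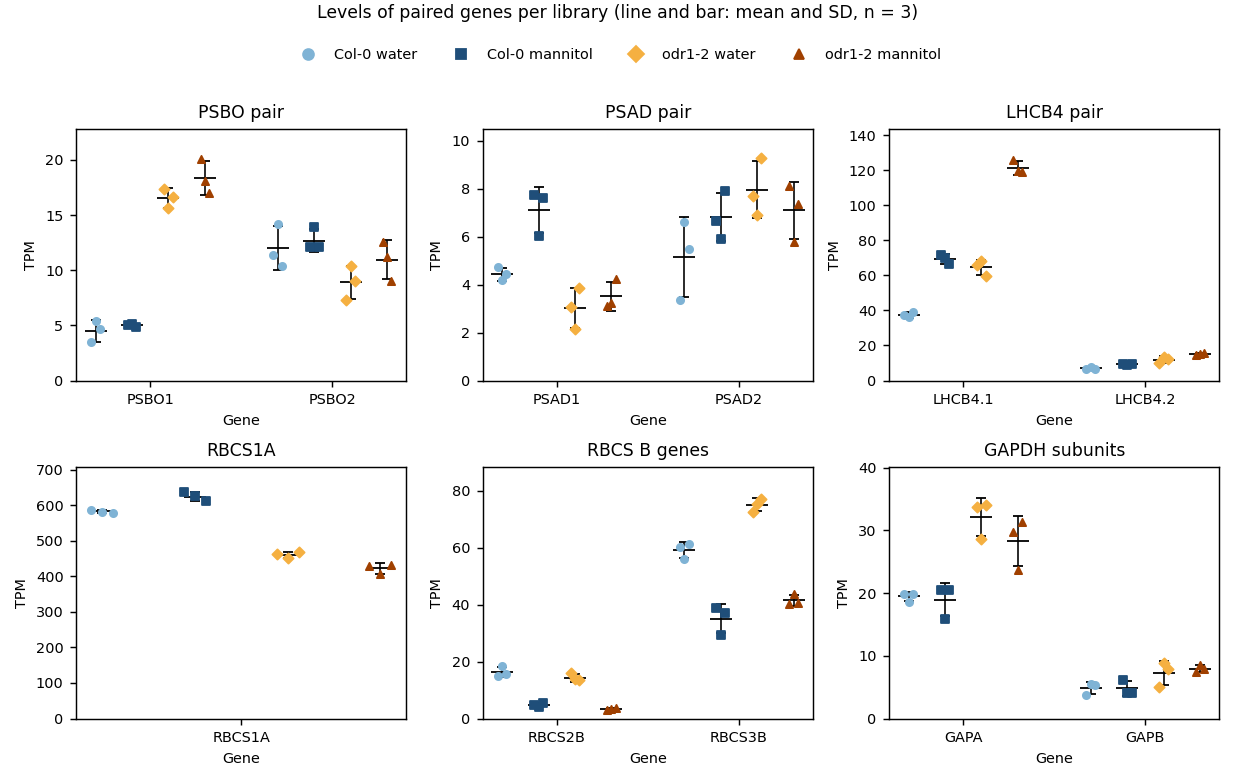
TPM per library (points) of related genes and enzyme subunits in the 4 groups, with the mean and SD of 3 libraries (line and bar), on axes that start at 0. PSBO1 is below PSBO2 in Col-0 and above it in odr1-2, and RBCS2B and RBCS3B are lower on mannitol in both genotypes.

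Other genes of the pathway, in lists chosen like the 49 with earlier results known, were called in both directions, with counts to be read against all genes. Of 17 further genes of the antenna, photosystems and electron transport, 13 were tested, and 3 rose and 3 fell in mannitol in Col-0, 3 and 2 in odr1-2. Of all genes, 21.0% rose and 21.4% fell in Col-0, and 21.2% rose and 21.3% fell in odr1-2. LHCB7, a rarer antenna protein, rose from a mean of 4.18 to 7.01 CPM in Col-0 (0.78 ± 0.20) and from 4.78 to 9.37 CPM in odr1-2 (1.05 ± 0.19). FD1, a ferredoxin, fell by −0.59 ± 0.07 and −0.71 ± 0.07 on the log2 scale. Between genotypes, 3 were higher and 1 lower in odr1-2 on water and 2 and 2 in mannitol, against 20.4% and 18.6% of all genes in water and 20.5% and 19.6% in mannitol. LHCB4.3, the third member of the CP29 family, was higher in odr1-2 by 1.13 ± 0.12 in water and 1.19 ± 0.13 in mannitol, at 12.6 against 27.0 CPM and 11 against 24.1 CPM. It was not called for mannitol.

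Of 13 further Calvin cycle genes, all tested, 4 rose and 2 fell in mannitol in Col-0 and 4 and 3 in odr1-2. HCEF1, the chloroplast fructose-1,6-bisphosphatase, rose by 0.68 ± 0.12 and 0.90 ± 0.12, and the transketolase gene TKL1 fell by −0.28 ± 0.05 and −0.37 ± 0.05. In odr1-2, 3 were higher and 3 lower in water and 3 and 2 in mannitol. Shares of all genes called in these contrasts were between 18.6% and 21.4% in each direction. SBPASE, sedoheptulose-1,7-bisphosphatase, had the largest rise, from 7.82 CPM in the wild type to 19.6 CPM in the mutant on water (1.34 ± 0.14) and from 8.23 to 15.9 CPM in mannitol (1.0 ± 0.14). GAPA2, the second gene of the A subunit, was lower by −0.78 ± 0.31 and −1.49 ± 0.32, where GAPA was higher.

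Of 18 chlorophyll synthesis genes 17 were tested, and both directions were called among them. In mannitol 2 rose and 3 fell in Col-0, and 2 rose and 5 fell in odr1-2, while in odr1-2 against Col-0 1 was higher and 6 lower in water and 0 and 6 in mannitol. Calls among all genes, in the order of these contrasts, were 21.0% higher and 21.4% lower, 21.2% and 21.3%, 20.4% and 18.6%, and 20.5% and 19.6%. The list's medians were −0.20, −0.18, −0.23 and −0.34 on the log2 scale in the order of these 4 contrasts, with medians over all genes at 0.00. Among the genes that rose in mannitol were CAO, which makes chlorophyll b (0.84 ± 0.10 and 0.55 ± 0.09), and HEMA2, a glutamyl-tRNA reductase gene of the first committed step (0.84 ± 0.11 and 0.75 ± 0.11). CHLI1, a subunit of magnesium chelatase, fell by −0.57 ± 0.07 and −0.41 ± 0.07. CHLH, its largest subunit, had 3.32 CPM in the wild type against 1.18 CPM in the mutant on water (−1.49 ± 0.35) and 3.83 against 1.17 CPM on mannitol (−1.66 ± 0.34). CHLG, chlorophyll synthase, was lower in odr1-2 by −0.57 ± 0.10 and −0.71 ± 0.10.

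Of 19 regulators of photosynthesis genes, all tested, 3 rose and 6 fell in mannitol in Col-0, 4 rose and 7 fell in odr1-2, 6 were higher and 3 lower in odr1-2 on water, and 5 were higher and 7 lower in mannitol, where 18.6% to 21.4% of all genes were called in each direction. PIF1, a factor that represses chlorophyll synthesis genes and germination in the dark, rose from a mean of 314 to 500.1 CPM in Col-0 (0.71 ± 0.05) and from 422 to 620.1 CPM in odr1-2 (0.63 ± 0.05). GNC, a GATA factor that promotes greening, fell by −0.62 ± 0.09 and −0.69 ± 0.09. PIF5, a related factor, was higher in odr1-2, at 2.38 against 7.54 CPM in water (1.66 ± 0.23) and 2.01 against 8.01 CPM in mannitol (2.05 ± 0.24), and SIG6, a sigma factor of the chloroplast RNA polymerase, was lower by −0.44 ± 0.06 and −0.63 ± 0.07. Of the GLK factors, which activate antenna and chlorophyll synthesis genes, GLK1 was not called in any contrast and GLK2 was called in odr1-2 on mannitol alone (−0.21 ± 0.08). Chloroplast-encoded genes, 42 of which were tested, were called higher in mannitol for 36 genes in each genotype and lower in odr1-2 for 18 in water and 13 in mannitol, against 21.0% and 21.2% of all genes higher in mannitol and 18.6% and 19.6% lower in odr1-2, with poly-T capture as the step that selected the RNA.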

How the data were processed

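The authors deposited raw read counts per locus and, in a second table, TPM (levels scaled to transcript length and library) for the same 36795 loci and 12 libraries. Per the labels' protocols, polyadenylated RNA was bound to poly-T beads before being copied with random hexamers. The submitters' processing notes list HISAT2 2.2.1, HTSeq 2.0.5, fastp 0.23.1 and the build TAIR10, and strand and multiple-mapping settings are not given in the sources used here. Counts were used for tests and TPM for levels. All loci were fitted in 1 edgeR 4.0.16 quasi-likelihood model (R 4.3.3, robust, TMM, filterByExpr with minimum count 10 and minimum total 15, 4 group means), and 5 contrasts were tested two-sided with Benjamini-Hochberg adjustment over 18413 genes and a threshold of 0.05. Standard errors were taken as the absolute log2 fold change over the square root of the F statistic. TMM factors were 0.960 to 1.03. Floors (3 counts) cover counting error only, while the standard errors and SDs also include the spread between replicate libraries. Names, coordinates and promoters came from RefSeq TAIR10.1, since the tables hold no coordinates, and all 49 loci matched. Windows of 100 bases measured sequence shared between transcripts.

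Every library's values are given for the 3 strongest called rises and falls per contrast with at least 1 CPM, the 5 highest genes and the near-copy families, and from each list up to 2 called genes per direction were eligible. A few more genes were named after their values were seen. The members and lists were chosen with earlier results of these data known. Alternatives were DESeq2 1.42.0 size factors, total count scaling, no filter, a filter of 1 CPM in 3 libraries, the DESeq2 Wald test, limma 3.58.1 on log2(TPM + 1) and log2(TPM + 0.1), a replicate block, near-copies summed, and leaving out each library. The pipeline was tested on simulated data. Protein sequences were not used here.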

Additional observations from a re-analysis of the deposited data

Results flagged for a closer look

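Among the pathway genes listed beside the 49, 2 of 19 regulators and 0 of the other photosynthesis, Calvin cycle and chlorophyll synthesis genes responded to mannitol differently in the genotypes by edgeR's test of the difference, which called 3.75% of all genes. The same test called 7 of the 8 seed markers (1 higher and 6 lower), 2 of the 6 endosperm markers (both lower) and 2 of the 42 tested chloroplast-encoded genes (both higher). ABI4, a factor of abscisic acid and chloroplast signalling, fell in Col-0 from 89.0 ± 4.58 (SD, n = 3) to 36.1 ± 1.26 CPM (log2 fold change −1.26 ± 0.07, standard error) and in odr1-2 from 124.9 ± 4.87 to 83.3 ± 1.43 CPM (−0.51 ± 0.06). The responses differed by 0.75 ± 0.09 on the log2 scale (edgeR adjusted p = 1.85e-09). PHYA, the far-red light receptor phytochrome A, rose in Col-0 from 729 ± 7.55 to 883 ± 35.2 CPM (0.31 ± 0.04) and in odr1-2 from 796 ± 17.3 to 823 ± 7.29 CPM (0.12 ± 0.04). Here the responses differed by −0.19 ± 0.06 (edgeR adjusted p = 0.0276). The groups of 3 libraries are too small for a search for single outlying libraries.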

How the results depend on the processing

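The settings were the 9 alternatives and the 12 fits that left out a library. Of 66 calls on the 49 genes over the 5 contrasts, 49 held in every setting that fitted the gene. A further 17 were lost in at least 1, and 0 changed sign. RBCS2B, RBCS3B and PSAH1 were not fitted singly when near-copies were summed, so their calls did not face that alternative. Counts of calls moved beyond 1.5-fold in few settings, and the cause was not tested. Without a filter on low counts, 3 genes in place of 5 were lower in odr1-2 in water. In the limma fits of log2(TPM + 1) and log2(TPM + 0.1), 7 in place of 4 were lower in odr1-2 in mannitol. Total count scaling and both TPM fits called 1 gene, RBCS1A, in place of 0, with a response to mannitol lower in odr1-2 than in Col-0. Both TPM fits also called RBCS1A lower in mannitol in odr1-2 (−0.13), where their medians over all genes were −0.10 and −0.11. When libraries were left out in turn, the counts ran from 5 to 8 for both directions of the Col-0 mannitol response, from 5 to 8 (higher) and 5 to 7 (lower) in odr1-2, from 11 to 15 and 3 to 5 for genotype in water, and from 13 to 14 and 4 to 5 in mannitol. Without Col-0 water replicate 2, 5 genes in place of 8 fell in Col-0. Deviations of libraries with the same replicate number correlated at −0.0264 to 0.0298, so the numbers do not pair the libraries. With a replicate block, 8 rose and 8 fell in Col-0, 7 and 7 in odr1-2, 15 were higher and 5 lower in odr1-2 in water, 14 and 4 in mannitol, and 0 in the test of the difference. Depth limits the genes under about 1 TPM, 12 of which were not tested.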
